A study of Mus musculus with 18 samples.

Results

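The mouse genes Pnpla3, Hsd17b13, Tm6sf2, Mboat7 and Gckr were followed in the liver as the orthologs of human genes in which inherited variants alter the risk of fatty liver. They were picked by name, without using their values, and all 5 were among the 16245 genes measured. Bulk RNA sequencing covered livers of 18 wild-type C57BL/6 mice (C57BL/6J in the study's methods) in 3 groups of 6, treated with vehicle, treated with recombinant GDF15, or pair-fed. All 3 groups ate a NASH diet, which is rich in fat and fructose and produces fatty liver, and were kept at about 29 °C, both from 8 weeks of age. GDF15, a stress-induced hormone that acts on the hindbrain and lowers food intake, was injected under the skin once a day, and the pair-fed mice received as much food as the GDF15-treated mice had eaten on the day before. The labels list doses of 0.3, 1 and 5 nmol/kg without saying which mouse received which. For the liver sequencing the study names a single dose, 1 nmol/kg in its text but 5 nmol/kg in a figure legend. No dose is therefore attached to any value.

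The 5 genes act at different points of hepatic lipid and sugar handling. PNPLA3 and HSD17B13 are proteins of the lipid droplet surface, the first a lipase and acyltransferase of the same family as the main triglyceride lipase ATGL, the second a dehydrogenase found mainly in hepatocytes that can use retinol. TM6SF2 is a membrane protein of the secretory pathway that is needed to load very-low-density lipoprotein with lipid before export. MBOAT7 attaches arachidonic acid to lysophosphatidylinositol and so shapes the acyl chains of membrane phosphatidylinositol. GCKR encodes a regulatory protein of the hepatocyte nucleus through which fructose and glucose metabolites control how much glucose the liver phosphorylates.

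In the mouse reference GRCm38 (GENCODE M21), which is the build named in the submitters' processing notes as mm10, Pnpla3 lies on the plus strand of chromosome 15 from 84167837 to 84187236 and Hsd17b13 on the minus strand of chromosome 5 from 103955440 to 103977410. Tm6sf2 lies on the plus strand of chromosome 8 from 70072924 to 70080066, Mboat7 on the minus strand of chromosome 7 from 3677789 to 3693523, and Gckr on the plus strand of chromosome 5 from 31297443 to 31327314. Distances to neighbouring genes given below run between RefSeq bounds, which differ from these GENCODE bounds for most of the 5 genes. Promoters of 4 of the 5 genes were matched by symbol in RefSeq (GRCm38.p6). The sequence upstream of the gene is shown for the gene whose level spread most between mice, Pnpla3, and the gene that fell most with GDF15, Hsd17b13. Capitals mark matches, on either strand, to 5 motifs that were searched for: the sterol regulatory element TCACNCCAC, the E-box CACGTG, the GC box GGGCGG, the CCAAT box CCAAT and the TATA box TATAAA.
Pnpla3 chr15:84167566-84167775, plus strand: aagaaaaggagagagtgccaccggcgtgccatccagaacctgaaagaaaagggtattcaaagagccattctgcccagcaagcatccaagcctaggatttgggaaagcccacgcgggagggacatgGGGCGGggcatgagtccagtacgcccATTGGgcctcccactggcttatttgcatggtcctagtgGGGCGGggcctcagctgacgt
Hsd17b13 chr5:103977411-103977638, minus strand: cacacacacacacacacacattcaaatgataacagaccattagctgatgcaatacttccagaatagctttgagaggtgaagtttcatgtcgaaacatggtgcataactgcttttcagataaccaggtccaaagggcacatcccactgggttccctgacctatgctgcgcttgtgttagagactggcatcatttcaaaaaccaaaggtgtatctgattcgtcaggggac
The Pnpla3 window of 210 bases held 2 GC boxes, 125 and 61 bases before the RefSeq start site, and 1 CCAAT box on the opposite strand. Among 12813 mouse promoter windows of that length, 43.3% held a GC box, 31.9% a CCAAT box, 5.95% the E-box, 5.71% the TATA box and 0.757% the sterol regulatory element. The Hsd17b13 window of 228 bases held none of the 5 motifs, where 48.2% of windows of its length held a GC box and 34.2% a CCAAT box. Bases that either annotation places inside the gene were left out. Both windows therefore stop short of the RefSeq start sites, at 84167816 for Pnpla3 and 103977388 for Hsd17b13. Motifs in the bases nearest the start, where a TATA box would lie, were not fully searched.

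Levels of the genes can be compared with each other only per transcript length. Here they are CPM (the count scaled to a common library total) divided by kilobases of transcript and averaged over the 18 livers. The transcript taken for each gene is its longest protein-coding one in GENCODE. Hsd17b13 was highest at 364.7 ± 100.04 (SD, n = 18), followed by Gckr at 151 ± 12.4, Tm6sf2 at 26.5 ± 4.82, Mboat7 at 15.05 ± 0.769 and Pnpla3 at 7.18 ± 5.19. Within the vehicle group these ranges did not overlap between neighbours in the order: the lowest vehicle liver reached 353 for Hsd17b13 and the highest reached 161 for Gckr, while Tm6sf2 spanned 21.3 to 26.0, Mboat7 13.8 to 16.4 and Pnpla3 2.72 to 9.57. With GDF15 the Pnpla3 range per transcript length, 2.38 to 21.0, took in the whole Mboat7 range of 13.7 to 15.23. Divided by coding length instead, Tm6sf2 at 33.8 ± 6.14 and Mboat7 at 30.5 ± 1.56 lay closer together over the 18 livers. The gap between these neighbours thus depends on which length is used. So does the overlap with GDF15: by coding length Pnpla3 averaged 10.2 ± 8.84 and Mboat7 29.6 ± 1.08 (n = 6), and their ranges did not meet.

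**Figure D1:**
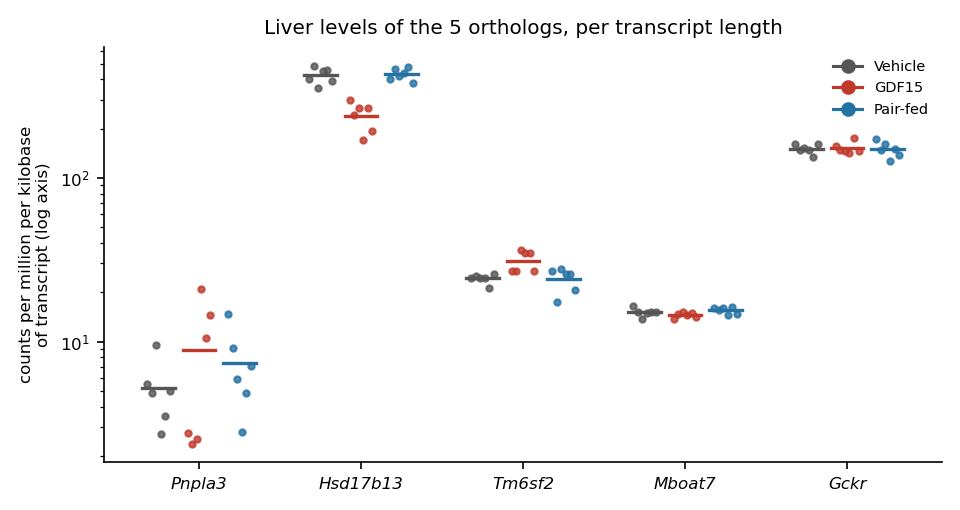
Level of each gene in each of the 18 livers, in CPM per kilobase of transcript on a log axis, with 1 point per mouse and a line at the mean of each group of 6. Hsd17b13 and Gckr sit highest and Pnpla3 lowest, and the GDF15 points of Pnpla3 run from 2.38 to 21.0.

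GDF15 treatment changed 4 of the 5 genes against vehicle and 3 of the 5 against pair-fed controls. For eating less without GDF15, 0 of the 5 passed, which does not show that they were unchanged. Hsd17b13 fell and Tm6sf2, Gckr and Mboat7 rose against vehicle (scaled to library totals, Gckr did not pass and Mboat7 turned to -0.05), and Hsd17b13, Tm6sf2 and Gckr also passed against pair-fed mice, in the same directions. A gene passed when the Benjamini-Hochberg adjusted p of the DESeq2 Wald test over all genes was under 0.05. With edgeR 4 and 3 of the 5 passed, beside 34.6% and 27.9% of all genes. By the DESeq2 rule 33.3% of all genes tested passed for GDF15 against vehicle (17.5% lower, 15.8% higher) and 27.1% for GDF15 against pair-fed (13.8% lower, 13.3% higher). Adding the study's requirement of an absolute log2 fold change above 1 left 0 of the 5 genes in either comparison, beside 6.27% and 3.37% of all genes. For pair-fed against vehicle 0 of the 5 passed, 0 had an unadjusted p under 0.05 and 0 passed with edgeR, beside 0% and, for the unadjusted p, 4.42% of all genes. Both GDF15 comparisons use the same 6 GDF15 livers, so their values are given side by side and are not independent of each other.

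**Figure D2:**
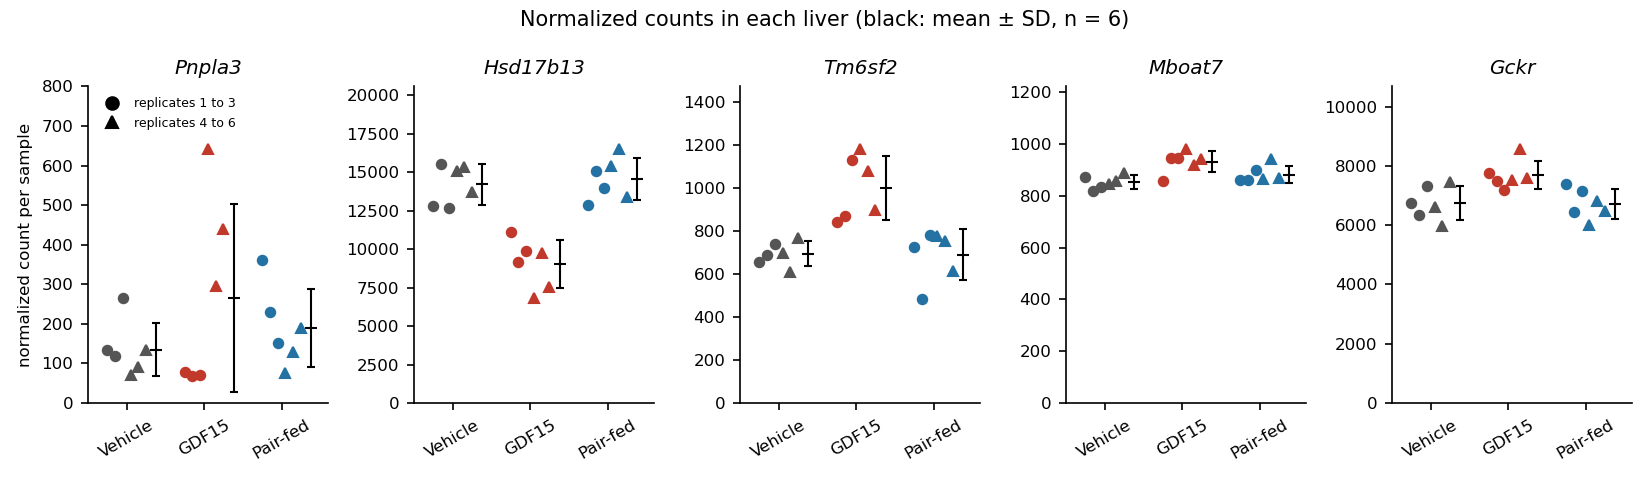
Normalized count (vertical axis, starting at 0) of each gene in each liver of the vehicle, GDF15 and pair-fed groups, with circles for replicates 1 to 3, triangles for replicates 4 to 6, and the mean ± SD of 6 beside each group. The GDF15 points lie below all others for Hsd17b13 and above all others for Tm6sf2, and split into a low and a high set for Pnpla3.

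Total counts ran from 16508864 to 35301853 per library, and 3 pair-fed libraries, replicates 4 to 6, were larger than the other 3. Marker genes of cell types were counted by the same rule. With GDF15 9 of 10 hepatocyte markers rose against vehicle, while 9 of 10 macrophage, 9 of 10 stellate cell and 8 of 10 bile duct markers fell. Of 10 endothelial markers 1 fell and 1 rose, and of all genes 17.5% were lower and 15.8% higher. Against pair-fed mice 9 of 10 hepatocyte markers rose, while 7 macrophage, 8 stellate cell, 2 bile duct and 2 endothelial markers fell. There 13.8% of all genes were lower and 13.3% higher. The endothelial counts, and the bile duct count against pair-fed mice, thus lay near the share of all genes. For pair-fed against vehicle 0 of 10 in each list passed, as did 0% of all genes. The summed normalized count of the hepatocyte list was 1550929 to 1999499 in vehicle, 2278825 to 2635452 in GDF15 and 1407277 to 2244606 in pair-fed livers, so the GDF15 livers stood above all others; no marker of this list, Alb included, was at 0 in any group. The stellate list summed to 9247 to 16228 in vehicle, 4617 to 6828 in GDF15 and 8318 to 13325 in pair-fed livers, again without overlap. In whole liver, fewer cells of a type and less RNA per cell cannot be told apart, and the part of these shifts in the results below was not tested.

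The scaling between libraries also matters for small changes. Median-of-ratios size factors centred the log2 fold change of the 12883 genes averaging 10 or more normalized counts at 0.019 for GDF15 against vehicle, whereas scaling to library totals moved that median to -0.15, and to -0.15 against pair-fed, turning 2323 genes higher and 2562 lower into 722 higher and 4946 lower. Changes are therefore relative to the median gene. For single genes tested against vehicle below, the value under library totals is given where it alters whether the gene passed. Counts over the lists are under median-of-ratios scaling unless library totals are named. By library totals 2 of the 5 genes passed in each GDF15 comparison, Hsd17b13 and Tm6sf2, beside 37.1% and 35.3% of all genes.

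**Figure D3:**
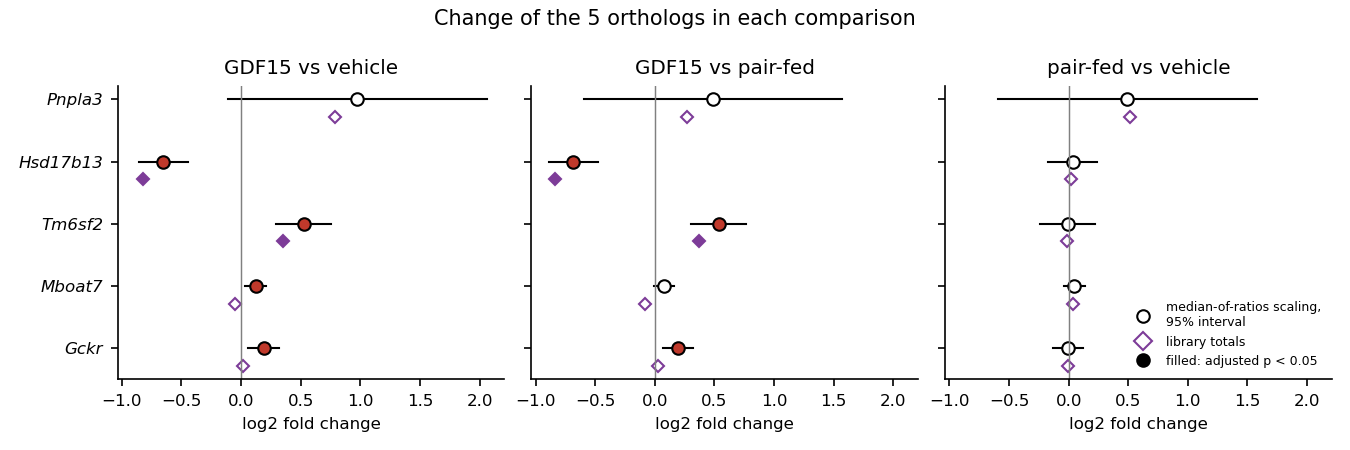
Log2 fold change of each gene in the 3 comparisons, as circles with 95% confidence intervals under median-of-ratios scaling and as diamonds under scaling to library totals, filled where the adjusted p was under 0.05. Hsd17b13 and Tm6sf2 are filled under both scalings in both GDF15 comparisons, the Gckr and Mboat7 diamonds lie near 0, and no symbol is filled for pair-fed against vehicle.

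Hsd17b13, the droplet dehydrogenase, was the only one of the 5 to fall. Its normalized count was lowest at 12660.2, median 14426 and highest at 15568 in vehicle livers, against 6831, 9462 and 11108 with GDF15 and 12870.1, 14527 and 16487 in pair-fed livers. Every GDF15 liver lay below every vehicle and every pair-fed liver, as did 6.94% and 5.23% of all genes tested in the same direction. The group means were 14209 ± 1312 (SD, n = 6) in vehicle, 9047 ± 1582 in GDF15 and 14541 ± 1356 in pair-fed livers. This is a fall of 36.3% against vehicle (log2 fold change -0.65 ± 0.10 SE, adjusted p = 1.98e-08) and of 37.8% against pair-fed mice (-0.68 ± 0.10, adjusted p = 4.48e-09). Pair-fed and vehicle livers differed by 0.03 ± 0.10 (adjusted p = 0.998), with a 95% interval from -0.17 to 0.24. The fall against vehicle was -0.44 (adjusted p = 0.00149) when only replicates 1 to 3 of each group were fitted and -0.87 (adjusted p = 2.26e-08) with replicates 4 to 6.

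Other genes of the lipid droplet surface and of retinol handling were measured beside Hsd17b13, 17 in all. Against vehicle 8 fell, 1 rose and 8 did not pass, with a median log2 fold change of -0.31 where all genes tested had 0.00, and against pair-fed mice 9 fell and 1 rose, where 33.3% and 27.1% of all genes passed. Cidec and Cidea, whose proteins fuse droplets into larger ones, fell most. Cidec ran from 1433 to 2920.4 normalized counts in vehicle, 45.0 to 509.6 in GDF15 and 1111 to 1943 in pair-fed livers, and fell by 90.5% against vehicle (log2 fold change -3.398 ± 0.50, adjusted p = 8.36e-10). Cidea fell by 3.28 ± 0.40 (adjusted p = 8.28e-14), from 572 ± 125 to 58.9 ± 29.9. The droplet coat gene Plin4 fell by 1.48 ± 0.34 (adjusted p = 0.000159), from 2391 ± 790.3 to 859 ± 454. Within the GDF15 group, Cidec held 292 to 510 in replicates 1 to 3 and 45.0 to 59.8 in replicates 4 to 6. Plin4 held 1118 to 1407 and 270 to 569 in the same sets, the first reaching into the vehicle range of 1325 to 3312. The single gene to rise was Dhrs3, which reduces retinaldehyde back to retinol, at 0.25 ± 0.07 (adjusted p = 0.00312), and its rise was 0.08 with adjusted p = 0.457 by library totals.

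Hsd17b11, the closest relative of Hsd17b13 and its neighbour on chromosome 5, lies 12377 bases away. It averaged 5157 ± 304 normalized counts in vehicle, 4640 ± 739 in GDF15 and 5408 ± 216 in pair-fed livers. The difference from vehicle did not pass (-0.15 ± 0.09, adjusted p = 0.165; by library totals -0.32, adjusted p = 0.00541), and against pair-fed mice Hsd17b11 fell by 0.22 on the log2 scale (adjusted p = 0.0401). In the GDF15 group replicates 4 to 6 held 3564 to 4357 and replicates 1 to 3 held 5192 to 5324. Hsd17b13 in the same livers reached 6831 to 9752 and 9173 to 11108, so its sets overlapped where those of Hsd17b11 did not. The Hsd17b13 mean was lower in replicates 4 to 6, at 8049 beside 10044 in replicates 1 to 3. The nearest gene on the other side, Klhl8, did not pass in either GDF15 comparison (-0.27 ± 0.13, adjusted p = 0.11 against vehicle). By library totals Klhl8 passed against vehicle at -0.44 (adjusted p = 0.0154) and did not against pair-fed mice (-0.32, adjusted p = 0.0948).

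Tm6sf2, needed for lipid loading of lipoproteins, rose with GDF15. Its normalized count was lowest at 607, median 694 and highest at 767 in vehicle livers, against 839.8, 986 and 1178 with GDF15 and 481, 739.6 and 778 in pair-fed livers. Every GDF15 liver lay above every liver of the other groups, as did 5.75% of all genes against vehicle and 4.86% against pair-fed. The rise was 43.9% against vehicle (log2 fold change 0.53 ± 0.12, adjusted p = 7.93e-05) and 44.8% against pair-fed mice (0.53 ± 0.12, adjusted p = 7.88e-05). By library totals it was 0.35 (adjusted p = 0.00774) and 0.37 (adjusted p = 0.00554). Pair-fed and vehicle livers differed by -0.01 ± 0.12 (adjusted p = 0.998), with a 95% interval from -0.24 to 0.22. With only replicates 1 to 3 the rise against vehicle was 0.45 and just missed the threshold (adjusted p = 0.0544).

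Of 16 genes that make, load or export lipoproteins beside Tm6sf2, 3 fell and 5 rose against vehicle (median 0.07), and 2 fell and 4 rose against pair-fed mice, where 33.3% and 27.1% of all genes passed. Apob, the scaffold of the particle, did not pass at 88647 ± 5621 normalized counts with GDF15 and 86916 ± 4655 with vehicle (0.03 ± 0.06, adjusted p = 0.735). Mttp, which transfers lipid onto it, did not pass either (0.13 ± 0.08, adjusted p = 0.191). The largest fall was Apoa4, an apolipoprotein of triglyceride-rich particles, from 137386 ± 27837 to 45579.5 ± 10786 (-1.59 ± 0.16, adjusted p = 2.74e-20), with no overlap between these groups. Tm6sf1, the relative of Tm6sf2, fell by 0.86 ± 0.26 (adjusted p = 0.00487) from a level of 85.2 ± 19.0 to 46.9 ± 17.1, so the 2 relatives moved in opposite directions. Sort1, a sorting receptor, fell by 0.75 ± 0.29 (adjusted p = 0.0371) and did not pass against pair-fed mice (-0.60, adjusted p = 0.119). By library totals it did pass against pair-fed mice, at -0.78 (adjusted p = 0.0314). Sort1 held 53.7 to 78.8 normalized counts in GDF15 replicates 1 to 3 and 110.4 to 206 in replicates 4 to 6, the latter within the vehicle range of 86.6 to 298. The largest rise was Apoa1, the main protein of high-density lipoprotein and also 1 of the hepatocyte markers, at 0.40 ± 0.10 (adjusted p = 0.000471). Apoc3 and Svip rose by 0.25 each (adjusted p = 0.00329 and 0.00906), and by library totals both were at 0.08 and did not pass.

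Hapln4, 3463 bases beyond Tm6sf2, rose by 0.66 ± 0.21 on the log2 scale (adjusted p = 0.00835; by library totals 0.48, adjusted p = 0.0643), while Sugp1, 577 bases on the other side, did not pass (0.15 ± 0.06, adjusted p = 0.0539). Hapln4 stood at 206 ± 18.2 normalized counts in vehicle and 327 ± 131 in GDF15 livers, with 317 to 577 in GDF15 replicates 4 to 6 and 207 to 265 in replicates 1 to 3. Tm6sf2 did not show that split, since its 2 lowest GDF15 values, 839.8 and 867, and its second highest, 1130.1, all came from replicates 1 to 3.

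Gckr, the regulator of hepatic glucose phosphorylation, rose by a small amount that depended on the scaling. Its normalized count was lowest at 5982, median 6672 and highest at 7461 in vehicle livers, against 7188, 7557 and 8558 with GDF15 and 5992, 6656 and 7404 in pair-fed livers. In each comparison 5 of 6 GDF15 livers exceeded every control liver. The rise was 14.0% against vehicle (0.19 ± 0.06, adjusted p = 0.0146) and 14.4% against pair-fed mice (0.19 ± 0.06, adjusted p = 0.0139). By library totals it was 0.02 (adjusted p = 0.869) and 0.03 (adjusted p = 0.811), and without GDF15 replicate 5, the highest liver, the rise against vehicle was 0.16 with adjusted p = 0.0517. Against the 3 smaller pair-fed libraries alone it was 0.13 with adjusted p = 0.204. With only replicates 1 to 3 of each group the rise against vehicle did not pass. Pair-fed and vehicle livers differed by -0.01 ± 0.06 (adjusted p = 0.998).

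Of 16 genes of glucose uptake, phosphorylation and release beside Gckr, 4 fell and 3 rose against vehicle (median -0.05), and 3 fell and 2 rose against pair-fed mice, where 33.3% and 27.1% of all genes passed. Among genes averaging 50 or more normalized counts the largest falls were in hexokinases, Hk2 from 201 ± 52.5 to 55.4 ± 29.0 (-1.85 ± 0.32, adjusted p = 1.7e-07) and Hk1 from 103 ± 21.8 to 76.2 ± 7.58 (-0.43 ± 0.15, adjusted p = 0.0197), both of which are sparse in hepatocytes. Ppp1r3b, which targets a phosphatase to glycogen, rose by 0.82 ± 0.30 (adjusted p = 0.0246; against pair-fed 0.33, adjusted p = 0.45), Slc37a4, the transporter of glucose 6-phosphate into the endoplasmic reticulum, by 0.57 ± 0.15 (adjusted p = 0.000661), and Pfkfb1, which sets fructose 2,6-bisphosphate, by 0.48 ± 0.15 (adjusted p = 0.00505). Ppp1r3b held 2889.7 to 4088 normalized counts in GDF15 replicates 1 to 3 and 6321 to 8534 in replicates 4 to 6, where vehicle livers ran from 1914 to 4678, so only the second set stood above them. By library totals Slc37a4 still passed at 0.40 (adjusted p = 0.00678), and Ppp1r3b at 0.64 (adjusted p = 0.0739) and Pfkfb1 at 0.30 (adjusted p = 0.0544) did not. Fndc4, which lies 1331 bases before Gckr, rose by 0.44 ± 0.09 (adjusted p = 4.72e-06), and Zfp512, the nearest measured gene after it, did not pass (-0.02 ± 0.08, adjusted p = 0.866).

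Mboat7, the lysophosphatidylinositol acyltransferase, varied least between mice, with a coefficient of variation of 2.97% in vehicle livers. Its normalized count was lowest at 819.9, median 851 and highest at 889 in vehicle livers, against 857, 943 and 979 with GDF15 and 859.6, 865 and 941 in pair-fed livers. The rise against vehicle was 8.96% (0.12 ± 0.04, adjusted p = 0.0202), with 5 of 6 GDF15 livers above all vehicle livers, and the difference from pair-fed mice did not pass (0.08 ± 0.04, adjusted p = 0.195). By library totals the sign turned, to -0.05 (adjusted p = 0.473) against vehicle and -0.09 (adjusted p = 0.171) against pair-fed mice. The call was also lost without vehicle replicate 2, the lowest vehicle liver (0.11, adjusted p = 0.0617), or without GDF15 replicate 4, the highest GDF15 liver (0.11, adjusted p = 0.0564). Mboat7 overlaps the neighbouring gene Tsen34, on the opposite strand, whose RefSeq start coordinate lies 102 bases before the RefSeq end coordinate of Mboat7. Tsen34 did not pass (0.13 ± 0.06, adjusted p = 0.0697). The strand setting of the authors' counting is not given in the sources used here.

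Of 16 genes of phospholipid remodelling and phosphatidylinositol synthesis beside Mboat7, 4 fell and 2 rose against vehicle (median -0.15), and 4 fell and 2 rose against pair-fed mice, where 33.3% and 27.1% of all genes passed. Cdipt, the phosphatidylinositol synthase, did not pass at 992 ± 53.3 with GDF15 and 1059 ± 57.1 with vehicle (-0.10 ± 0.06, adjusted p = 0.181). Lpcat3, which places polyunsaturated chains on phosphatidylcholine, did not pass either (-0.12 ± 0.08, adjusted p = 0.239). By library totals both passed, Cdipt at -0.27 (adjusted p = 0.00068) and Lpcat3 at -0.29 (adjusted p = 0.000779). Lpcat2 fell from 90.8 ± 26.5 to 40.6 ± 12.9 (-1.16 ± 0.24, adjusted p = 1.49e-05), Lpcat1 from 67.7 ± 11.9 to 47.5 ± 8.13 (-0.51 ± 0.16, adjusted p = 0.00676) and the phospholipase Pla2g6 from 1553 ± 107 to 1049.9 ± 185 (-0.56 ± 0.11, adjusted p = 3.43e-06). The rises were Tmc4, the neighbour 236 bases from Mboat7, from 120.9 ± 9.60 to 163 ± 15.28 (0.43 ± 0.11, adjusted p = 0.000428), and Cds2, which makes the lipid precursor of phosphatidylinositol (0.10 ± 0.04, adjusted p = 0.0477). By library totals Tmc4 was 0.26 (adjusted p = 0.0533) and Cds2 turned to -0.07 (adjusted p = 0.361).

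Pnpla3, the droplet lipase, was the only one of the 5 that did not pass in either GDF15 comparison, and it had by far the widest spread between mice. In vehicle livers replicates 1 to 6 held 133, 119.8, 264, 70.4, 90.1 and 133 normalized counts. In GDF15 livers they held 78.0, 69.2, 71.7, 641, 295 and 439.9, and in pair-fed livers 361, 230.4, 152, 75.9, 128 and 191. The GDF15 group thus fell into 3 livers at or below nearly every control and 3 at or above nearly every control, with nothing between 78.0 and 295. The log2 fold change was 0.98 ± 0.55 against vehicle (adjusted p = 0.167), with a 95% interval from -0.11 to 2.06, and 0.49 ± 0.55 against pair-fed mice (adjusted p = 0.554). Without GDF15 replicate 4, the highest liver, these were 0.50 (adjusted p = 0.518) and 0.00718 (adjusted p = 0.995). Pair-fed against vehicle was 0.49 ± 0.55 (adjusted p = 0.998), with a 95% interval from -0.60 to 1.58, too wide to say that Pnpla3 was unchanged.

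The 2 sets of GDF15 livers carried consecutive replicate numbers, 1 to 3 and 4 to 6, and the labels name no batch. Fitting only replicates 1 to 3 of all groups, the log2 fold change of Pnpla3 with GDF15 was -1.23 ± 0.35 against vehicle (adjusted p = 0.00378, beside 21.9% of all genes passing) and -1.76 ± 0.34 against pair-fed (adjusted p = 1.2e-05, beside 23.1%). Fitting only replicates 4 to 6, it was 2.23 ± 0.35 against vehicle (adjusted p = 2.1e-08, beside 18.9%) and 1.80 ± 0.35 against pair-fed (adjusted p = 1.15e-05, beside 16.7%). The split was known from the values when these fits were read, and the difference between the sets was not tested. In the other groups the sets ran the other way, with vehicle means of 172 for replicates 1 to 3 and 97.9 for replicates 4 to 6, and pair-fed means of 248 and 132. Which of these levels stands for treatment cannot be told apart from whatever else the replicate sets share.

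The same split of the GDF15 livers was seen in Acaca, the enzyme that makes malonyl-CoA for fatty acid synthesis. Acaca held 3599 to 4332 normalized counts in GDF15 replicates 1 to 3 and 6330.0 to 8195 in replicates 4 to 6, and it did not pass against vehicle (0.14 ± 0.21, adjusted p = 0.646). Pnpla5, the neighbouring lipase gene 44601 bases before Pnpla3, held 25.1 to 51.6 and 72.7 to 232 in the same sets and did not pass (0.52 ± 0.49, adjusted p = 0.438). Samm50, a mitochondrial import gene 2719 bases after Pnpla3, did not pass either (-0.05 ± 0.06, adjusted p = 0.562), but by library totals it passed at -0.23 (adjusted p = 0.000498). Pnpla2, which encodes ATGL, ran the other way, with 2198 to 2776 in replicates 1 to 3 and 1396 to 1815 in replicates 4 to 6 (0.17 ± 0.17 against vehicle, adjusted p = 0.463). The ratio of Pnpla3 to Pnpla2 therefore lay between 0.0249 and 0.0355 in GDF15 replicates 1 to 3 and between 0.211 and 0.362 in replicates 4 to 6, beside 0.0325 to 0.152 in vehicle livers. Its mean log2 value with GDF15 was 0.39 above that of vehicle livers (exact permutation test, two-sided, p = 0.617, adjusted p = 0.872 over 6 ratio tests, n = 6) and differed from that of pair-fed livers by -0.14 (exact permutation p = 0.872, adjusted p = 0.872, n = 6).

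**Figure D4:**
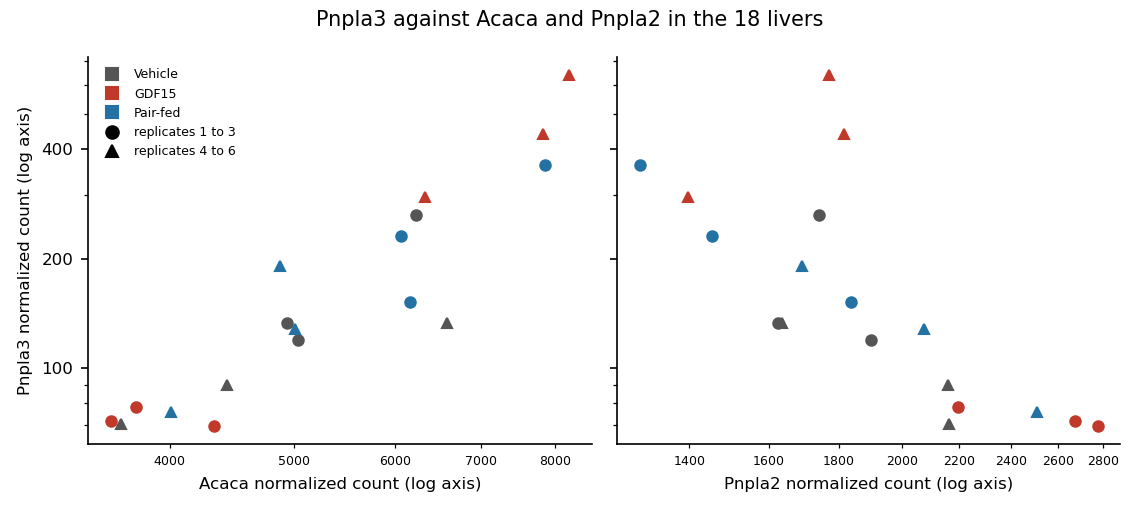
Pnpla3 normalized count (vertical log axis) against Acaca (left) and Pnpla2 (right, horizontal log axes) in the 18 livers, coloured by group, with circles for replicates 1 to 3 and triangles for replicates 4 to 6. Pnpla3 rises with Acaca in all groups and the GDF15 circles and triangles sit at opposite ends, while the GDF15 circles have the highest Pnpla2 values but for 1 pair-fed liver.

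Of 12 lipases, lipase partners and lipogenic regulators beside Pnpla3, 2 fell and 2 rose against vehicle (median 0.16), and 3 fell and 2 rose against pair-fed mice, where 33.3% and 27.1% of all genes passed. Lipa, the lysosomal acid lipase, fell from 7668 ± 519 to 5864 ± 493 (-0.39 ± 0.07, adjusted p = 1.11e-06), and Abhd5, the coactivator of ATGL, from 808 ± 49.1 to 708 ± 69.3 (-0.19 ± 0.06, adjusted p = 0.0126). Mlxipl, which encodes the carbohydrate-responsive factor ChREBP, rose from 6552 ± 1053 to 9413 ± 1577 (0.52 ± 0.12, adjusted p = 0.000163), and by library totals by 0.35 (adjusted p = 0.0123). Within the GDF15 group Mlxipl was also split, at 7939.6 to 8508 in replicates 1 to 3 and 9305 to 11589.7 in replicates 4 to 6, both above the vehicle median of 6239.7. Nr1h3, the liver X receptor, rose by 0.23 ± 0.05 (adjusted p = 4.56e-05), and by library totals was at 0.06 (adjusted p = 0.374). Srebf1, which encodes the insulin-responsive activator of lipogenic genes, Pnpla3 among them, did not pass at 8681 ± 1409 with GDF15, 6956 ± 850.4 with vehicle and 9338 ± 2828 in pair-fed livers (0.32 ± 0.17, adjusted p = 0.13).

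Over all 77 genes of these lists, 21 fell, 13 rose and 43 did not pass against vehicle, and 21 fell and 11 rose against pair-fed mice. Of all genes 33.3% passed against vehicle and 27.1% against pair-fed mice. The median log2 fold change against vehicle was -0.00 in these lists and 0.00 over all genes tested. By library totals 41 fell and 3 rose against vehicle, and 44 fell and 3 rose against pair-fed mice. By that scaling 37.1% and 35.3% of all genes passed, with 4946 lower and 722 higher against vehicle and 4439 lower and 626 higher against pair-fed mice. For pair-fed against vehicle 0 of 77 passed and 0 passed with edgeR. An unadjusted p under 0.05 was found for 3 of the 77, beside 4.42% of all genes. Of 22 further mouse orthologs of liver disease genes, 8 of which are also in the lists above, 5 fell and 6 rose against vehicle. Lyplal1 fell most (-0.48 ± 0.09, adjusted p = 2.24e-06), then Lipa and Parvb (-0.39 ± 0.15, adjusted p = 0.0342), and the largest rises were Ppp1r3b, Serpina1a (0.77 ± 0.10, adjusted p = 8.23e-12) and Tmc4. Serpina1a is 1 of several near-identical copies among which Salmon divides reads, so its own level is uncertain.

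**Figure D5:**
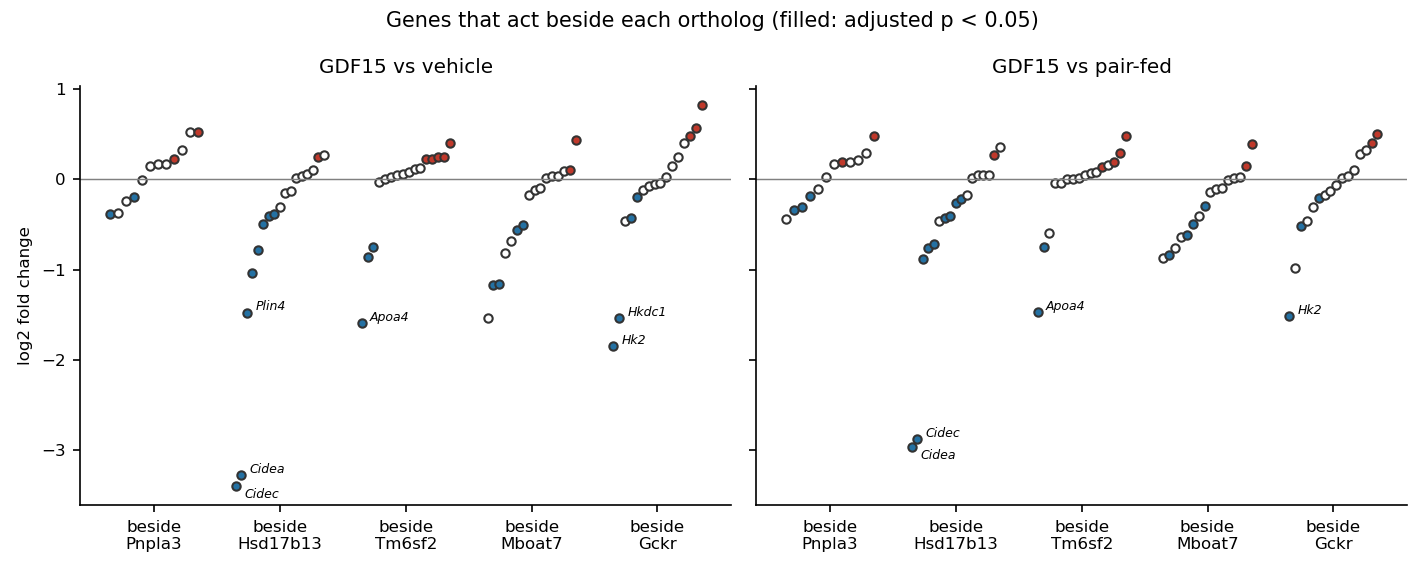
Log2 fold change of each gene listed beside the 5 orthologs, for GDF15 against vehicle (left) and against pair-fed mice (right), ordered within each list and filled where the adjusted p was under 0.05 (red higher, blue lower). The deepest falls are Cidec and Cidea beside Hsd17b13, and of the 13 rises against vehicle drawn here under median-of-ratios scaling, library totals leave 3 genes called higher.

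Across the 18 livers the genes with the most similar pattern to each ortholog were ranked by Pearson r of log2(normalized count + 1) over 10882 genes with a mean of at least 50, as a description only, since the livers share groups and replicate sets. Closest to Pnpla3 were Mindy2 (r = 0.940), Acaca (0.923) and Pxdc1 (0.909), and r lay between 0.905 and 0.952 once group means were removed. Closest to Tm6sf2 were Prlr, the prolactin receptor (0.967), Cyp2c68 (0.917), Syne2 (0.906) and Mtfp1 (0.891), of which Prlr was at 0.927 and the others between 0.692 and 0.775 without group means. Prlr held 1019 to 1415 normalized counts in vehicle, 2199.7 to 3268 in GDF15 and 672 to 1706 in pair-fed livers, and it was pair-fed replicate 2, the lowest liver for Tm6sf2, that was also lowest for Prlr. Closest to Gckr were Abcb11, the bile salt export pump (0.961), P2ry4 (0.930), Crebzf (0.919) and its own neighbour Fndc4 (0.913), all between 0.861 and 0.951 without group means. Closest to Hsd17b13 were Osbpl3, Ctsz, Palmd and Haus8, at 0.934 to 0.938 and at 0.708 to 0.751 without group means. Closest to Mboat7 were Arih1, Ap3b1, Erap1 and Ppm1l, at 0.819 to 0.830 and at 0.580 to 0.723 without group means.

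Among the 5 orthologs themselves, Hsd17b13 and Tm6sf2 had r = -0.760 over the 18 livers and -0.217 once group means were removed, so most of that relation lay between groups. Hsd17b13 and Pnpla3 had r = -0.478, and -0.778 once group means were removed. Tm6sf2 and Mboat7 had r = 0.707 and 0.439, and Tm6sf2 and Gckr 0.677 and 0.308.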

How the data were processed

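Whole-liver RNA from 18 samples was sequenced, and per the study's methods reads were trimmed with Trim Galore and quantified with Salmon; the submitters' processing notes name build mm10, and tool versions and the strand setting of the counting are not given in the sources used here. The authors deposited estimated read counts per gene symbol as whole numbers, not scaled for library size; 16245 genes were listed, the lowest with 5 counts over all samples. Counts were fitted with DESeq2 1.42.0 (R 4.3.3; Wald test, median-of-ratios size factors, group as the single term, all 18 samples, Benjamini-Hochberg adjustment after independent filtering). edgeR 4.0.16 (quasi-likelihood, TMM, 12992 genes after its filter) was an alternative. Ratios of 2 genes were compared by exact two-sided permutation over 924 splits. The SE is that of the fit, the SD is between livers, and a count of 3 is taken as the floor of detection, for counting error alone.

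Samples were grouped by the treatment in their labels. The labels number livers S1 to S6 in each group without saying that these are separate animals or that a number is shared. The study's figure legends for the liver data give 6 mice per group, so each sample was taken as 1 mouse. The p-values measure the spread between these samples. Deviations of samples with the same number did not correlate above 0.1 in every pair, and no block was used in the values reported. Genes, gene lists, markers and the split by replicate number were chosen with earlier results of these data known. In each list of genes beside an ortholog, up to 3 genes with the largest falls and up to 3 with the largest rises are named. They are taken from those that passed against vehicle with a mean normalized count of 50 or more. A few genes are named for their role whatever their value. Also named are the nearest genes on the chromosome and the 4 genes of most similar pattern. A few genes that these rules pick, and 1 of the ratios, are not reported here. Alternatives were TMM library sizes, edgeR, the replicate block, replicates 1 to 3 or 4 to 6 alone, the smaller or larger pair-fed libraries, leaving out each liver, and, chosen after seeing the data, library totals as size factors. The statistics were tested on simulated data.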

Additional observations from a re-analysis of the deposited data

Results flagged for a closer look

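Vehicle replicate 3 stood apart from the other vehicle livers for Pnpla3, with 264 normalized counts beside 70.4 to 133 in the other 5. Its distance to the nearest of them was 0.676 of the group's whole range, above the critical value of Dixon's test at 95% for 6 samples. In all, 21 groups of 6 values were examined and 1 was picked out, where chance alone gives about 1.05.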

How the results depend on the processing

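The fall of Hsd17b13 and its call held under every alternative run in both GDF15 comparisons apart from the fold threshold, and Tm6sf2 lost its call only with replicates 1 to 3 against vehicle (0.45, adjusted p = 0.0544). With library totals as size factors, chosen after seeing the data, 2 of the 5 genes passed against vehicle. Mboat7 turned to -0.0497 against vehicle and -0.0864 against pair-fed, and Gckr was 0.0194 and 0.0271. Of the 77 listed genes 41 fell and 3 rose against vehicle, and 44 fell and 3 rose against pair-fed. By that scaling 37.1% and 35.3% of all genes passed. A log2 fold change above 1 left 0 of the 5 genes against vehicle and 0 against pair-fed. Replicates 1 to 3 alone gave 2 of the 5 against vehicle, Hsd17b13 and Pnpla3, beside 21.9% of all genes. Pnpla3 was at -1.23 against vehicle and -1.76 against pair-fed, in a split that was known from its values. Mboat7 at 0.12 and Gckr at 0.14 did not pass there against vehicle. Gckr was 0.10 against pair-fed and 0.0440 in pair-fed against vehicle. Replicates 4 to 6 alone gave Pnpla3 at 2.23 and 1.80, Mboat7 at 0.13, Gckr at 0.24 against vehicle, and 0.0439 for Tm6sf2 in pair-fed against vehicle. There 8 and 6 listed genes were higher, where 18.9% and 16.7% of all genes passed in either direction. Fewer samples were fitted in both replicate sets. With the 3 smaller pair-fed libraries Gckr against pair-fed was 0.13 (adjusted p = 0.204), and pair-fed against vehicle gave -0.0229 for Hsd17b13 and 0.0548 for Gckr. With the 3 larger ones 11 listed genes fell against pair-fed, and pair-fed against vehicle gave -0.0390 for Pnpla3 and 0.0413 for Tm6sf2. Apart from runs without 1 liver, the Mboat7 call against vehicle was lost in 3 alternatives and its sign turned in 1. The Gckr call was lost in 3 alternatives in each GDF15 comparison. Other causes of these shifts were not tested.

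The ratio of Pnpla3 to Pnpla2 changed sign to -1.68 against vehicle with replicates 1 to 3 and to 2.15 against pair-fed with replicates 4 to 6. Per coding length the levels were 683 for Hsd17b13, 184 for Gckr, 33.8 for Tm6sf2 and 30.5 for Mboat7.

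The labels do not say whether samples with the same number share more than that number. Their deviations correlated at a mean r of 0.161 for pair-fed with vehicle livers, beside -0.0327 for livers with different numbers, and ran from -0.02 to 0.50 over the 6 numbers. The mean r for the same number was 0.0117 for GDF15 with vehicle livers and 0.0252 for GDF15 with pair-fed livers. With the replicate block Mboat7 against vehicle was 0.12 with adjusted p = 0.0624.

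Leaving out 1 liver at a time, Pnpla3 ran from 0.50 (without GDF15 replicate 4) to 1.28 (without vehicle replicate 3) against vehicle and from 0.00718 (without GDF15 replicate 4) to 0.77 (without pair-fed replicate 1) against pair-fed, passing in none. Mboat7 against vehicle ran from 0.11 to 0.15 and lost its call without vehicle replicate 2 or GDF15 replicate 4, and Gckr ran from 0.16 to 0.22 and lost it without GDF15 replicate 5. Pair-fed against vehicle, which passed nowhere, ran from -0.00561 to 0.0648 for Hsd17b13, -0.0476 to 0.0735 for Tm6sf2 and -0.0376 to 0.0256 for Gckr. The ratio of Pnpla3 to Pnpla2 ran from -0.0203 to 0.75 against vehicle and from -0.55 to 0.23 against pair-fed. With 67 to 499 raw counts of Pnpla3 in a library, the spread between livers limits its comparison more than the depth does.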
